A study of Mus musculus with 6 samples.

Results

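The genes described here encode the enzymes that build N-glycans and mucin-type O-glycans: 98 genes, read by 102 of the 28856 probe sets of the array, out of 19938 genes tested. They were chosen by symbol from the probe sets that name exactly 1 gene, with patterns for the Alg, Man1 and Man2a, Mgat, Galnt, Gcnt, B3gnt, B4galt, B3galt, Fut, St3gal, St6gal, St6galnac and St8sia families. The patterns use no measured value, but they were set with earlier results of these data known. Most are glycosyltransferases, but the Man1 and Man2a genes encode mannosidases that trim glycans, and several members, such as St3gal5 and B4galt6, act mainly on glycolipids. RNA came from MC3T3-E1, an established line of mouse calvarial pre-osteoblasts that forms a mineralised matrix when induced, labelled as C57BL/6 and newborn. The 3 undifferentiated samples were labelled as untreated, from cells grown in α-MEM free of ascorbic acid with 10% serum. The 3 differentiated samples were taken after 14 days in DMEM with 10% serum, dexamethasone (0.1 µM), ascorbic acid-2-phosphate (0.2 mM), β-glycerophosphate (10 mM) and sodium pyruvate (1 mM), begun at confluence. The groups therefore differ in base medium, density, time in culture and every induction compound at once, and these cannot be told apart.

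N-glycans start as a sugar tree that Alg enzymes assemble on the lipid dolichol in the endoplasmic reticulum (ER) membrane, and the oligosaccharyltransferase then moves the whole tree onto new proteins. Mannosidases trim it in the ER and Golgi, Mgat enzymes add branches, and galactose, N-acetylglucosamine (GlcNAc), fucose and sialic acid are added last. Mucin-type O-glycans start instead in the Golgi, where a Galnt enzyme puts N-acetylgalactosamine (GalNAc) on serine or threonine, and they share the later galactosyl- and sialyltransferases. Bone matrix is rich in such products, among them bone sialoprotein and alkaline phosphatase.

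Calls in the first and last steps of the pathway ran mostly in opposite directions. Of the 12 Alg genes of lipid-linked oligosaccharide assembly 7 fell and 1 rose, whereas of the 20 sialyltransferase genes 10 rose and 1 fell. Across the 98 members 29 rose, 14 fell and 55 did not pass the threshold, an adjusted p under 0.05 in limma's moderated test over all genes. Members were thus called in 43.9% of cases, 29.6% higher and 14.3% lower, where 35.5% of all genes were called, 16.4% higher and 19.1% lower. Called at 2-fold or more were 7 members, 6 higher (St6gal1, B3gnt2, Gcnt2, St3gal4, St3gal6 and B4galt5) and 1 lower (Alg8), against 4.81% of all genes, 2.53% higher and 2.28% lower. The groups did not overlap for 53 of the 98 members, against 46.2% of all genes. Overlap was rare among called genes in general: it occurred in 77 of all 7070 called genes and in none of the 43 called members. The median log2 fold change, always given as differentiated minus undifferentiated, was 0.05 over the members and 0.02 over all genes. Nothing in the labels says whether the replicates came from separate cultures beyond calling them independent, so the p-values measure the spread between these samples.

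**Figure D1:**
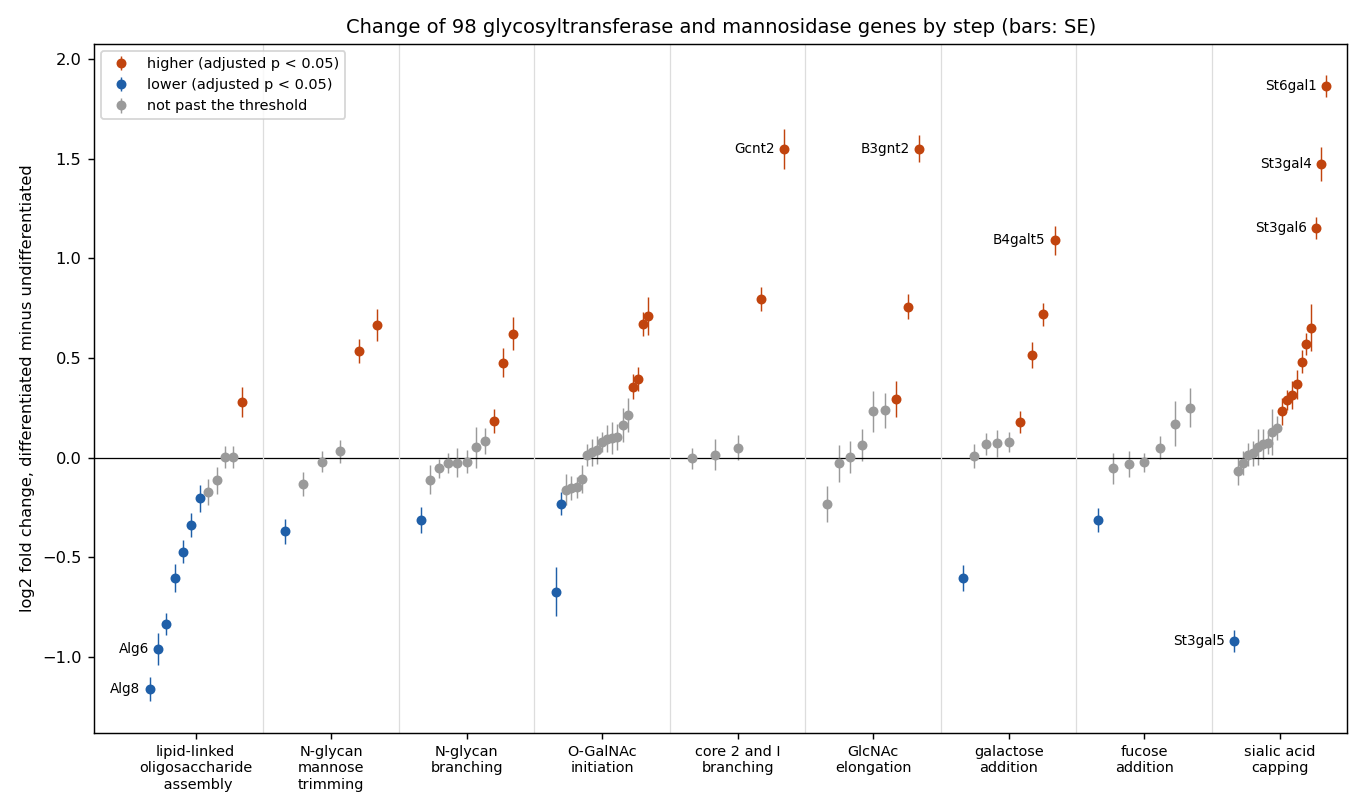
Log2 fold change (vertical axis, differentiated minus undifferentiated) of all 98 members, grouped along the horizontal axis by step and ordered within a step by size; points are limma estimates with SE bars, red higher, blue lower and grey not past the threshold. The Alg genes reach down to -1.16 (Alg8), and the sialyltransferases reach up to 1.86 (St6gal1) with St3gal5 alone well below 0.

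The deposited values are log2 expression centred so that each probe set has a median of 0 over the 6 arrays. Where the groups do not overlap, 0 lies midway between their nearest arrays, so the sign of a single value has no meaning of its own and the level of a gene, or whether it was expressed at all, cannot be read. A member that did not pass may be unchanged, too variable or silent. The SD within a group ran from 0.00164 to 0.254 among the members, with a median of 0.0703 against 0.0727 over all genes. In bulk RNA, fewer cells that express a gene and less RNA per cell cannot be told apart.

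As a check of the labels, the osteoblast markers had 5 of 11 higher, led by Dmp1 (3.44 ± 0.20) and Ibsp (3.12 ± 0.09), and 3 lower (Dlx5, Col1a1 and Sp7). Markers of other cell types also moved in part: 4 of 12 macrophage and osteoclast genes rose (Ctsk, Cd68, Cd14 and Laptm5), 3 of 9 adipocyte genes, 2 of 10 endothelial genes, 1 of 10 muscle genes and 2 of 10 chondrocyte genes, with 1 chondrocyte gene lower. The largest of these changes were in Ctsk (3.21), the adipocyte gene Plin4 (1.55), the chondrocyte gene Col2a1 (-1.01) and the endothelial gene Flt1 (0.76). The shares called were 33.3%, 33.3%, 20%, 10% and 30% in the order given, each below the 35.5% of all genes. Rises alone were 33.3%, 33.3%, 20%, 10% and 20%, against 16.4% of all genes. In the osteoblast list 72.7% were called. With 1 array left out, the calls of Cebpa (adipocyte), Tnnt3 (the muscle call) and Vwf (endothelial) were lost (adjusted p up to 0.121, 0.138 and 0.0752). The mean centred value of the macrophage and osteoclast list was -0.23 to -0.17 before and 0.16 to 0.27 after induction, but apart from Ctsk (3.21) its changes were 0.44 or less, and Laptm5 lost its call with 1 array left out (adjusted p up to 0.115). The part of these cell types in the results was not tested.

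The sequences just upstream of the members' starts are shown for the largest falls and rises among genes with a single annotated start, Alg8 and Alg6 for assembly and B3gnt2 and St3gal4 for elongation and capping, to set the promoters of both ends of the pathway side by side. They are the 250 bases before the RefSeq start in GRCm38.p6, 5′ to 3′ on the gene's strand, at chr7:97371367-97371616 (plus strand) for Alg8, chr4:99715380-99715629 (plus) for Alg6, chr11:22859736-22859985 (minus) for B3gnt2 and chr9:35116865-35117114 (minus) for St3gal4. Capitals mark the GC box GGGCGG on either strand, a binding motif of Sp1-family factors.
Alg8: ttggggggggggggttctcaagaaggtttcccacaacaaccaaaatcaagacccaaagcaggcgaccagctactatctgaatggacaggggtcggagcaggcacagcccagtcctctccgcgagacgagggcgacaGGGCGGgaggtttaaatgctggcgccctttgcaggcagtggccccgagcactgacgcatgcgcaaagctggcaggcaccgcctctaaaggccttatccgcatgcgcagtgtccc
Alg6: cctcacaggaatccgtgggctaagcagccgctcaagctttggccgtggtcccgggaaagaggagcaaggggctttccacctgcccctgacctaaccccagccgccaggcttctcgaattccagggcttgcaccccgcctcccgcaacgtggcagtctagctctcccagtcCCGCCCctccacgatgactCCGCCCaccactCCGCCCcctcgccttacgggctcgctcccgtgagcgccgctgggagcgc
B3gnt2: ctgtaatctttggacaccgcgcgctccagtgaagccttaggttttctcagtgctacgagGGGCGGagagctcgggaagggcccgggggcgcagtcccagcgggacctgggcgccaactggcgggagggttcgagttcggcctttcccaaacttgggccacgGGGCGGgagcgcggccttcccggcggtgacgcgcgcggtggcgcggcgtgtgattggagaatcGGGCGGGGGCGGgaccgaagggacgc
St3gal4: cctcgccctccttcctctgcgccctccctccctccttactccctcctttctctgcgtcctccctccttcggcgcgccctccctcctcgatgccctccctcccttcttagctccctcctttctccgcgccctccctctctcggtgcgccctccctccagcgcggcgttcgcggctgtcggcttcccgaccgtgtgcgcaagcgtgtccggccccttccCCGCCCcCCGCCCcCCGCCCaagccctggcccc

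Genes that fell and genes that rose both carried this motif, 1 copy in Alg8, 3 in Alg6, 4 in B3gnt2 and 3 in St3gal4, most of them close to the start. RefSeq start windows were at hand for 73 members, 99 windows in all. The GC box was in 16 of 32 windows of members that rose (50%), 8 of 12 of those that fell (66.7%) and 28 of 55 of those not called (50.9%), against 42.6% of 21262 windows of protein-coding genes. Some genes have several windows; counted by gene, the GC box was in at least 1 window of 15 of 20 members that rose, 8 of 11 that fell and 28 of 42 not called, against 8008 of 17491 protein-coding genes. The CCAAT box, searched as CCAAT on either strand, was in 37.5%, 25% and 34.5% of these windows, against 35.4%. The half-site TGTTCT of the glucocorticoid receptor, the receptor of dexamethasone, was in 3 of 32 windows of members that rose and 1 of 12 of those that fell, against 13.7% of all protein-coding windows. The TATA box, as TATAAA, was in 1 of 32 and 2 of 12 against 11.6%, and the E-box CACGTG in 0 of 32 and 0 of 12 against 6.63%. Of the 55 windows of members not called, 10 held the half-site, 2 the TATA box and 5 the E-box. Over all 99 windows of members the shares were 14.1%, 5.05% and 5.05%. These are matches of letters in a short window and not sites of binding.

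Assembly of the lipid-linked oligosaccharide had its largest falls in Alg8 and Alg6, which add glucose in its last part. Alg6, Alg8 and Alg10b, which add the 3 terminal glucoses in that order, all fell. Alg8 stood at 0.65, 0.62 and 0.51 in undifferentiated replicates 1 to 3 and at -0.51, -0.55 and -0.63 in differentiated replicates 1 to 3. Its log2 fold change was -1.16 ± 0.06 (SE, 3 arrays per group), 2.24-fold lower (adjusted p = 9.36e-07). Alg6 stood at 0.51, 0.36 and 0.46 in undifferentiated and at -0.63, -0.57 and -0.36 in differentiated arrays. Its 1.95-fold fall (-0.96 ± 0.08, adjusted p = 1.73e-05) left the groups well apart, although differentiated replicate 3 lay nearer to the undifferentiated arrays than the others. Alg10b was at 0.32, 0.19 and 0.21 against -0.23, -0.19 and -0.27 (-0.47 ± 0.06, adjusted p = 1.86e-04).

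Among the mannosyltransferases that precede them, Alg9, which works in the ER lumen, fell clearly. Its values were 0.49, 0.37 and 0.45 in undifferentiated and -0.37, -0.38 and -0.45 in differentiated arrays (-0.84 ± 0.06, 1.79-fold lower, adjusted p = 4.03e-06). The other lumenal mannosyltransferases, Alg3 (-0.11 ± 0.07) and Alg12 (0.00 ± 0.05), did not pass. On the cytosolic face, Alg13 and Alg14 together form the enzyme that adds the second GlcNAc, and both fell. Alg13 was at 0.42, 0.39 and 0.21 against -0.26, -0.21 and -0.33 (-0.61 ± 0.07, adjusted p = 1.43e-04), and Alg14 changed by -0.34 ± 0.06 (adjusted p = 0.00203). The first mannosyltransferase, Alg1, was the one Alg gene that rose (0.28 ± 0.08, adjusted p = 0.0184), and Alg2, which follows it, fell (-0.20 ± 0.07, adjusted p = 0.0430). Both calls were weak: Alg1 was lost without undifferentiated replicate 1 or 3 or differentiated replicate 1 or 3 (adjusted p up to 0.0665) and after cyclic loess scaling, and Alg2 without undifferentiated replicate 2 or 3 or differentiated replicate 1 or 3 (up to 0.153) and with the replicate block. Alg11 (0.00 ± 0.06, adjusted p = 0.991) and the dolichol-phosphate glucose synthase Alg5 (-0.17 ± 0.07, adjusted p = 0.0730) did not pass. The median over the 12 genes was -0.27.

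Most called genes that feed and follow this assembly were lower too. Of 10 measured genes of dolichol supply and the first sugars 4 fell and 1 rose, with a median of -0.04. The share called was 50%, with 40% lower, against 35.5% and 19.1% of all genes. Dpagt1, which starts the chain by putting GlcNAc-phosphate on dolichol, changed by -0.68 ± 0.06 (adjusted p = 2.86e-05), from 0.28 to 0.40 in undifferentiated arrays to -0.41 to -0.28 in differentiated arrays. Dolpp1, which recycles dolichol (-0.49 ± 0.05), and Nus1, a subunit of the enzyme that makes its chain (-0.34 ± 0.07), fell as well, and Srd5a3, of the last steps of dolichol synthesis, rose (0.23 ± 0.06). The remaining fall, Dpm2 (-0.15 ± 0.05, adjusted p = 0.0490), lost its call with 1 array left out (adjusted p up to 0.137). Of the 12 oligosaccharyltransferase genes 9 fell and 1 rose, with a median of -0.27 (83.3% called and 75% lower, against the same shares of all genes). Ostc was at 0.49, 0.62 and 0.49 against -0.62, -0.49 and -0.59, which is 2.14-fold lower (-1.10 ± 0.06, adjusted p = 1.63e-06). Rpn1 (-0.81 ± 0.06) and Magt1 (-0.65 ± 0.06) followed, while the catalytic subunits Stt3a (-0.27 ± 0.06) and Stt3b (-0.26 ± 0.06) fell by less. Tusc3, an alternative to Magt1 in the Stt3b complex, rose by 0.19 ± 0.05 (adjusted p = 0.0197), a call lost without undifferentiated replicate 2 or differentiated replicate 1 or 2 (adjusted p up to 0.0724).

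The next enzymes act on the attached glycan in the ER. Of 16 genes of the glucosidases, lectin chaperones and glycoprotein quality control 9 fell and 4 rose (median -0.19). The share called was 81.25%, with 56.25% lower, against 35.5% and 19.1% of all genes. The glucosidase II subunits Prkcsh (-0.52 ± 0.06) and Ganab (-0.45 ± 0.07) fell, as did Edem1 (-0.49 ± 0.06), which marks misfolded glycoproteins for disposal. The 4 rises were Os9 (0.76 ± 0.06), Erlec1 (0.31 ± 0.07), Edem3 (0.31 ± 0.06) and Uggt2 (0.28 ± 0.08), and Os9 and Erlec1 encode lectins of the disposal route. The call of Uggt2, which re-glucosylates unfolded glycoproteins, was lost with 1 array left out (adjusted p up to 0.0629). So were the falls of Mogs, Uggt1, Pdia3 and Mcfd2 (adjusted p up to 0.0683, 0.128, 0.152 and 0.162). The ER mannosidase Man1b1, a member, also fell (-0.37 ± 0.06, adjusted p = 0.00144), from 0.12 to 0.29 in undifferentiated arrays to -0.23 to -0.12 in differentiated ones.

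In the Golgi, trimming split by paralogue. Man2a2, an α-mannosidase II, stood at -0.26, -0.36 and -0.25 in undifferentiated and at 0.33, 0.54 and 0.25 in differentiated arrays, a 1.59-fold rise (0.66 ± 0.08, adjusted p = 1.65e-04). Its paralogue Man2a1 was at -0.13 ± 0.06 (adjusted p = 0.128). Of the Golgi mannosidase I genes, Man1c1 rose (0.54 ± 0.06, adjusted p = 1.09e-04), while Man1a (-0.02 ± 0.05) and Man1a2 (0.03 ± 0.06) did not pass.

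Of the 11 Mgat genes of branching 3 rose and 1 fell, with a median of -0.02; the share called (36.4%) was close to the 35.5% of all genes. The largest change was in Mgat3, which adds the bisecting GlcNAc that stops further branching. Its values were -0.21, -0.34 and -0.49 against 0.25, 0.37 and 0.21 (0.62 ± 0.08, 1.54-fold higher, adjusted p = 2.83e-04). The isoenzymes of the same branch, Mgat4a and Mgat4b, moved apart, Mgat4b rising (0.48 ± 0.07, adjusted p = 8.09e-04) and Mgat4a falling (-0.31 ± 0.07, adjusted p = 0.00510). Mgat1, the gateway to complex glycans, rose slightly (0.18 ± 0.06, adjusted p = 0.0373), but that call was lost without any 1 array except undifferentiated replicate 3 (adjusted p up to 0.117), with the replicate block and after cyclic loess. Mgat2 (-0.11 ± 0.07), Mgat5, which makes the branch that carries long poly-LacNAc chains (-0.03 ± 0.07), and its relative Mgat5b (0.05 ± 0.10) did not pass.

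**Figure D2:**
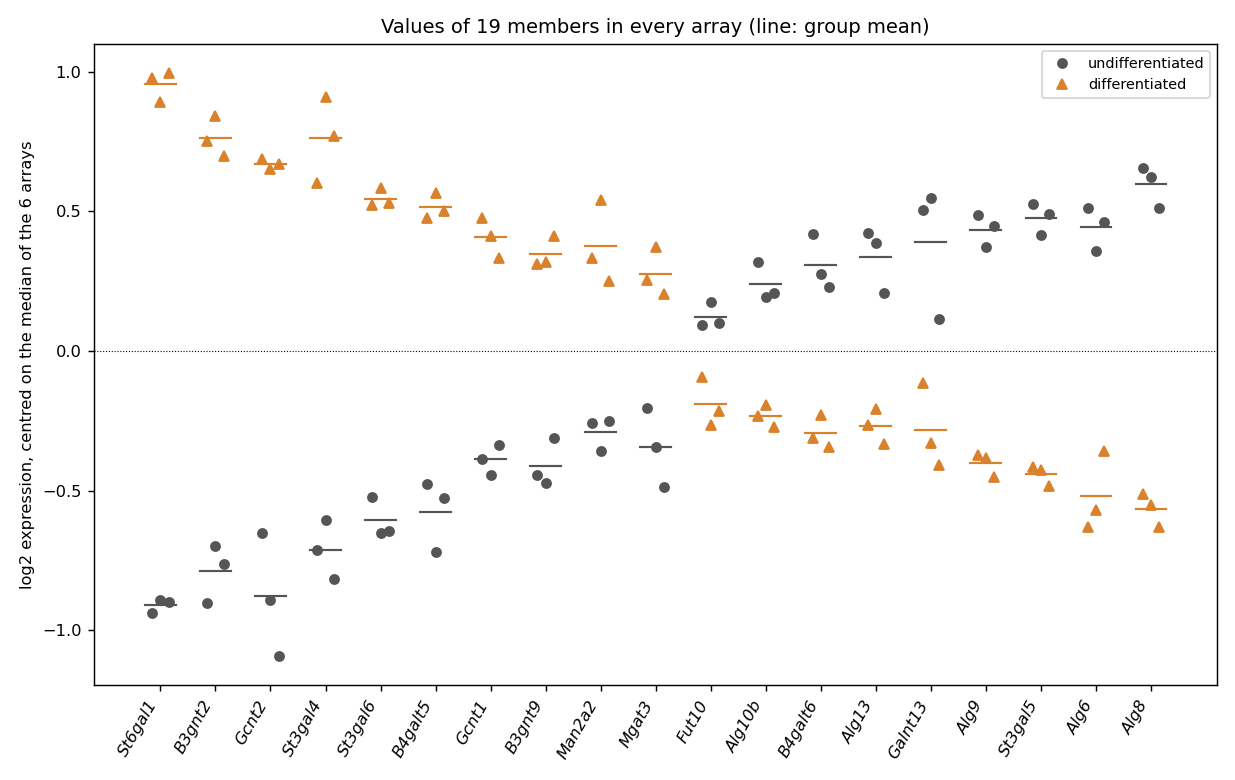
Centred log2 expression (vertical axis) of 19 members in each of the 3 undifferentiated (grey circles) and 3 differentiated (orange triangles) arrays, with a line at each group mean; the members are the 8 largest rises, the 8 largest falls and the leading member of each remaining step. The rises and falls were chosen among called members whose groups do not overlap, so the gaps between their groups follow from that choice. Galnt13 has the smallest gap relative to its spread.

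O-GalNAc initiation, the most numerous step, held changes both ways. Of 19 Galnt genes 4 rose, 2 fell and 13 did not pass, with a median of 0.08, so its share of calls (31.6%) was below that of all genes. Galnt15 (0.71 ± 0.10, adjusted p = 3.78e-04), Galnt11 (0.67 ± 0.06, adjusted p = 2.51e-05), Galnt12 (0.39 ± 0.06) and Galnt16 (0.36 ± 0.06) rose. Galnt13 was at 0.51, 0.55 and 0.11 in undifferentiated and at -0.11, -0.33 and -0.41 in differentiated arrays, so undifferentiated replicate 3 lay far below its group. It was 1.59-fold lower (-0.67 ± 0.12, adjusted p = 0.00210), and Galnt10 fell too (-0.23 ± 0.06, adjusted p = 0.0106). Galnt1 (-0.16 ± 0.08) and Galnt2 (-0.15 ± 0.06), known as broadly expressed members, did not pass, nor did Galnt3 (0.09 ± 0.07, adjusted p = 0.347), which glycosylates the phosphate hormone FGF23. C1galt1, which extends the first GalNAc to core 1, fell (-0.35 ± 0.10, adjusted p = 0.0273), a call lost without any 1 array except undifferentiated replicate 3 or differentiated replicate 2 (adjusted p up to 0.0988). Its chaperone gene C1galt1c1 was at 0.11 ± 0.06 (adjusted p = 0.248).

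Of the 5 Gcnt genes, which encode enzymes that branch O-glycans and poly-LacNAc chains, 2 rose and 3 did not pass, a share (40%) near that of all genes, with a median of 0.05. Gcnt2, which makes the I-antigen branch, was at -0.65, -0.89 and -1.09 in undifferentiated and at 0.69, 0.65 and 0.67 in differentiated arrays. It was 2.92-fold higher (1.55 ± 0.10, adjusted p = 3.24e-06), with a within-group SD of 0.221 in undifferentiated and 0.0189 in differentiated arrays. Gcnt1, the core 2 enzyme, was at -0.39, -0.44 and -0.34 against 0.48, 0.41 and 0.34 (0.79 ± 0.06, 1.73-fold higher, adjusted p = 8.45e-06). Gcnt3 was at 0.05 ± 0.06, and Gcnt4 (0.01 ± 0.08) and Gcnt7 did not pass either.

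Of the 9 B3gnt genes of elongation 3 rose and 6 did not pass. The share called was 33.3%, all higher, against 35.5% of all genes called and 16.4% higher. B3gnt2, the main enzyme that adds GlcNAc to poly-LacNAc chains, was at -0.90, -0.70 and -0.76 in undifferentiated and at 0.75, 0.84 and 0.70 in differentiated arrays. Every differentiated array lay far above every undifferentiated one, and the rise was 2.93-fold (1.55 ± 0.07, adjusted p = 3.75e-07). B3gnt9 was at -0.45, -0.47 and -0.31 against 0.31, 0.32 and 0.41 (0.76 ± 0.06, adjusted p = 1.65e-05). The third rise, B3gnt4 (0.29 ± 0.09, adjusted p = 0.0334), was lost without undifferentiated replicate 1 or 2 or differentiated replicate 1 or 2 (adjusted p up to 0.111). B3gnt7, an enzyme of keratan sulphate chains (0.23 ± 0.10, adjusted p = 0.118), and the glycolipid enzyme B3gnt5 (0.00 ± 0.08) did not pass.

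The galactosyltransferases that alternate with them rose in the B4galt family. Of 9 genes 4 rose and 1 fell (55.6% called and 44.4% higher, against 35.5% and 16.4% of all genes). The 4 measured B3galt genes lay between 0.01 and 0.08 with none past the threshold. B4galt1, the chief galactosyltransferase of N-glycans, rose 1.64-fold (0.72 ± 0.06, adjusted p = 1.52e-05), from -0.43 to -0.31 in undifferentiated arrays to 0.31 to 0.42 in differentiated ones. B4galt4 rose (0.51 ± 0.07, adjusted p = 2.87e-04), and B4galt3 (0.18 ± 0.06, adjusted p = 0.0372) lost its call without any 1 array except undifferentiated replicate 3 (adjusted p up to 0.122), with the replicate block and after cyclic loess. B4galt5 and B4galt6, which both can make lactosylceramide, the stem of most glycolipids, moved in opposite directions. B4galt5 was at -0.48, -0.72 and -0.53 against 0.48, 0.57 and 0.50, 2.13-fold higher (1.09 ± 0.07, adjusted p = 3.87e-06). B4galt6 was at 0.42, 0.28 and 0.23 against -0.31, -0.23 and -0.34, 1.52-fold lower (-0.60 ± 0.07, adjusted p = 9.53e-05). B4galt2 is read only by a probe set shared with Ccdc24 and is no member; that probe set was at 0.04, 0.08 and 0.15 against -0.23, -0.17 and -0.04, and whose RNA it reads cannot be told apart.

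Fucosylation was the step with the fewest calls, 1 of 7 (14.3%, against 35.5% of all genes), a fall. Fut10 was at 0.09, 0.18 and 0.10 against -0.09, -0.26 and -0.21 (-0.31 ± 0.06, adjusted p = 0.00342). Fut8, which adds the core fucose of N-glycans, was at 0.05 ± 0.06 (adjusted p = 0.576), and the Lewis-type enzymes Fut4, Fut7 and Fut9 were at -0.03 ± 0.06, 0.17 ± 0.11 and -0.02 ± 0.05. Fut11 (0.25 ± 0.10, adjusted p = 0.0791) averages probe sets that differed: one was at 0.47 ± 0.08 (adjusted p = 0.00179 when probe sets were tested singly) and the other, with far more spread, at 0.03 ± 0.22.

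Sialic acid capping held the largest rise of all members. St6gal1, which puts sialic acid in α2,6 linkage on N-glycans, was at -0.94, -0.89 and -0.90 in undifferentiated and at 0.98, 0.89 and 1.00 in differentiated arrays. The replicates lay close together in each group, and the rise was 3.64-fold (1.86 ± 0.05, adjusted p = 4.28e-08). St3gal4 and St3gal6 cap the same kind of chain in α2,3 linkage. St3gal4 was at -0.71, -0.60 and -0.82 against 0.60, 0.91 and 0.77 (1.47 ± 0.09, 2.77-fold higher, adjusted p = 2.00e-06), and St3gal6 at -0.52, -0.65 and -0.64 against 0.52, 0.58 and 0.53 (1.15 ± 0.06, 2.22-fold higher, adjusted p = 6.86e-07). In both genes all differentiated arrays lay clear of the undifferentiated ones.

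The other 7 sialyltransferase genes that rose, of several substrate classes, changed by 0.65 or less. St6galnac2 (0.65 ± 0.12, adjusted p = 0.00192) was highest in differentiated replicate 1, at 0.65 against 0.23 and 0.19 in the others. St3gal1, which caps core 1 (0.57 ± 0.06, adjusted p = 5.37e-05), averages probe sets at 0.91 ± 0.09 and 0.23 ± 0.07, both higher. St6galnac6 (0.48 ± 0.06), St6galnac5 (0.37 ± 0.07), St3gal2 (0.31 ± 0.07) and St3gal3 (0.29 ± 0.05) also rose, and St6galnac4 (0.23 ± 0.07, adjusted p = 0.0297) lost its call without undifferentiated replicate 1 or 3 or differentiated replicate 1 or 3 (adjusted p up to 0.107) and after cyclic loess. The one fall was St3gal5, which makes the ganglioside GM3 from lactosylceramide. It was at 0.53, 0.41 and 0.49 in undifferentiated and at -0.41, -0.43 and -0.48 in differentiated arrays, 1.89-fold lower (-0.92 ± 0.05, adjusted p = 2.06e-06). Among the 9 that did not pass were all of the measured St8sia genes, which add sialic acid to sialic acid, from -0.07 in St8sia3 to 0.15 in St8sia1 (adjusted p = 0.0913). The median over the 20 genes was 0.19.

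Genes that supply and remove sialic acid were picked from the wider lists of sugar nucleotides and glycan removal after their values were seen, and are given as values. Nans, which makes the phosphorylated form of sialic acid, was at 0.42, 0.40 and 0.32 in undifferentiated and at -0.50, -0.32 and -0.40 in differentiated arrays, 1.73-fold lower (-0.79 ± 0.06, adjusted p = 1.41e-05). Nanp (-0.32 ± 0.07) and Cmas (-0.50 ± 0.07), which dephosphorylate and activate it, and Slc35a1 (-0.29 ± 0.05), which carries the activated sugar into the Golgi, all fell. Gne, the first enzyme of the route, was at -0.13 ± 0.06 (adjusted p = 0.137). Neu1, the lysosomal sialidase that removes sialic acid, was at -0.70, -1.14 and -0.95 against 0.73, 0.70 and 0.78, 3.17-fold higher (1.66 ± 0.10, adjusted p = 2.31e-06), and Neu2, Neu3 and Neu4 were between 0.04 and 0.08.

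**Figure D3:**
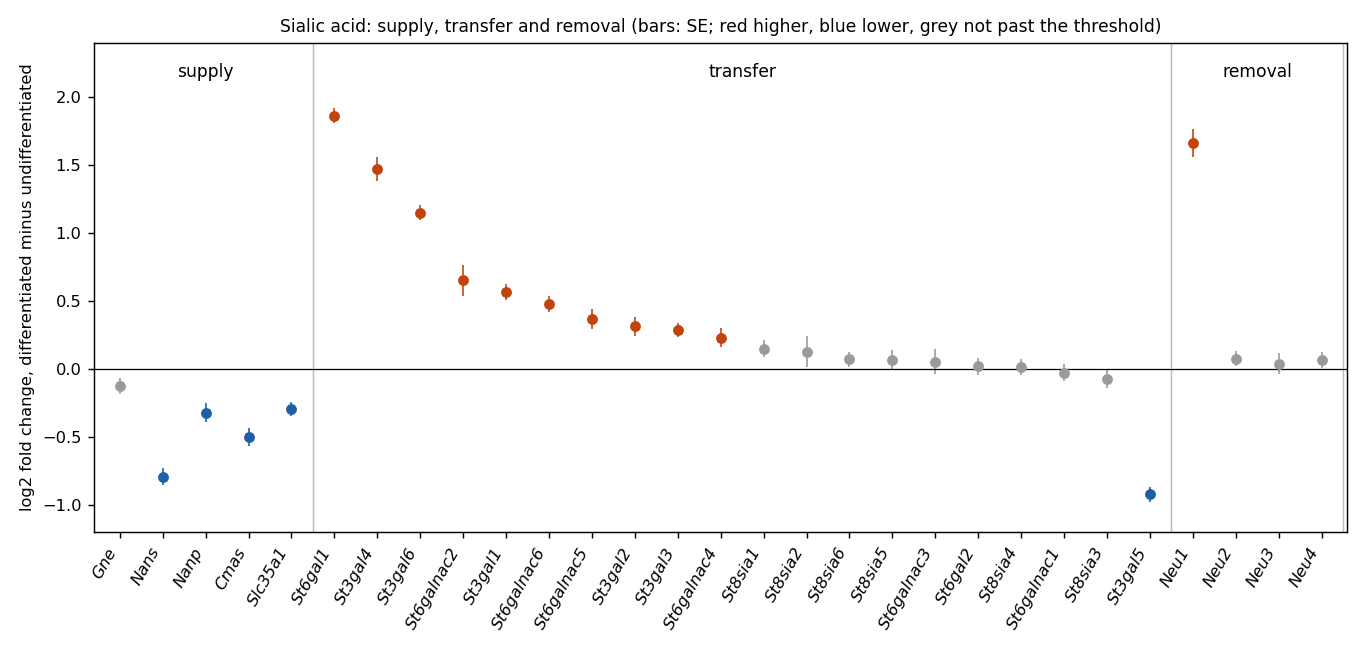
Log2 fold change with SE (vertical axis, differentiated minus undifferentiated) of genes that supply sialic acid, transfer it to glycans or remove it, red higher, blue lower and grey not past the threshold. The supply genes, picked after their values were seen, run from -0.79 in Nans to -0.13 in Gne, while 10 of the 20 sialyltransferases and the sialidase Neu1 are higher.

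Other sugar donors were covered by further genes. Of 22 genes of sugar nucleotide synthesis 8 fell and 3 rose, with a median of -0.15. The share called was 50%, with 36.4% lower, against 35.5% and 19.1% of all genes. Besides Nans, Cmas and Nanp, the falls included Gmds, which starts GDP-fucose synthesis (-0.47 ± 0.06), and the leading rise was Gfpt2, an entry enzyme of the hexosamine route (0.66 ± 0.08, adjusted p = 2.48e-04). The other rises were weak: Galt (0.20 ± 0.07, adjusted p = 0.0458) was lost without any 1 array except undifferentiated replicate 1 (adjusted p up to 0.149), with the replicate block, and after median or cyclic loess scaling, and Fcsk (0.18 ± 0.06, adjusted p = 0.0425) without any 1 array except differentiated replicate 3 (up to 0.145), after median scaling and with array weights. Among the falls, Fpgt (-0.22 ± 0.07) lost its call with 1 array left out (adjusted p up to 0.129). Of 11 carriers of sugar nucleotides 4 fell and 3 rose (63.6% called, against 35.5% of all genes). Slc35a5 (0.80 ± 0.05) had the largest rise and Slc35d2 (-0.47 ± 0.09) the largest fall. Slc35a3, which fell (-0.32 ± 0.10), had overlapping groups. Its call and the fall of Slc35a4 were lost with 1 array left out (adjusted p up to 0.118 and 0.0509).

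Most enzymes that take glycans apart were higher. Of 14 measured genes of glycan removal 9 rose, 5 of them at least 2-fold, and 5 did not pass, with a median of 0.70. The share called was 64.3%, all higher, against 35.5% of all genes called and 16.4% higher. Hexa, a subunit of the lysosomal hexosaminidase, was at -1.31, -1.27 and -1.06 in undifferentiated and at 1.15, 1.06 and 1.11 in differentiated arrays, 4.98-fold higher (2.32 ± 0.07, adjusted p = 5.32e-08). The fucosidase genes Fuca2 (1.67 ± 0.11) and Fuca1 (1.11 ± 0.07) and the β-mannosidase gene Manba (1.24 ± 0.06) rose, as did Ngly1, which cuts N-glycans from misfolded proteins in the cytosol (0.31 ± 0.06). The remaining 5 were Engase, Neu2, Neu3, Neu4 and Man2c1, from -0.01 to 0.11.

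**Figure D4:**
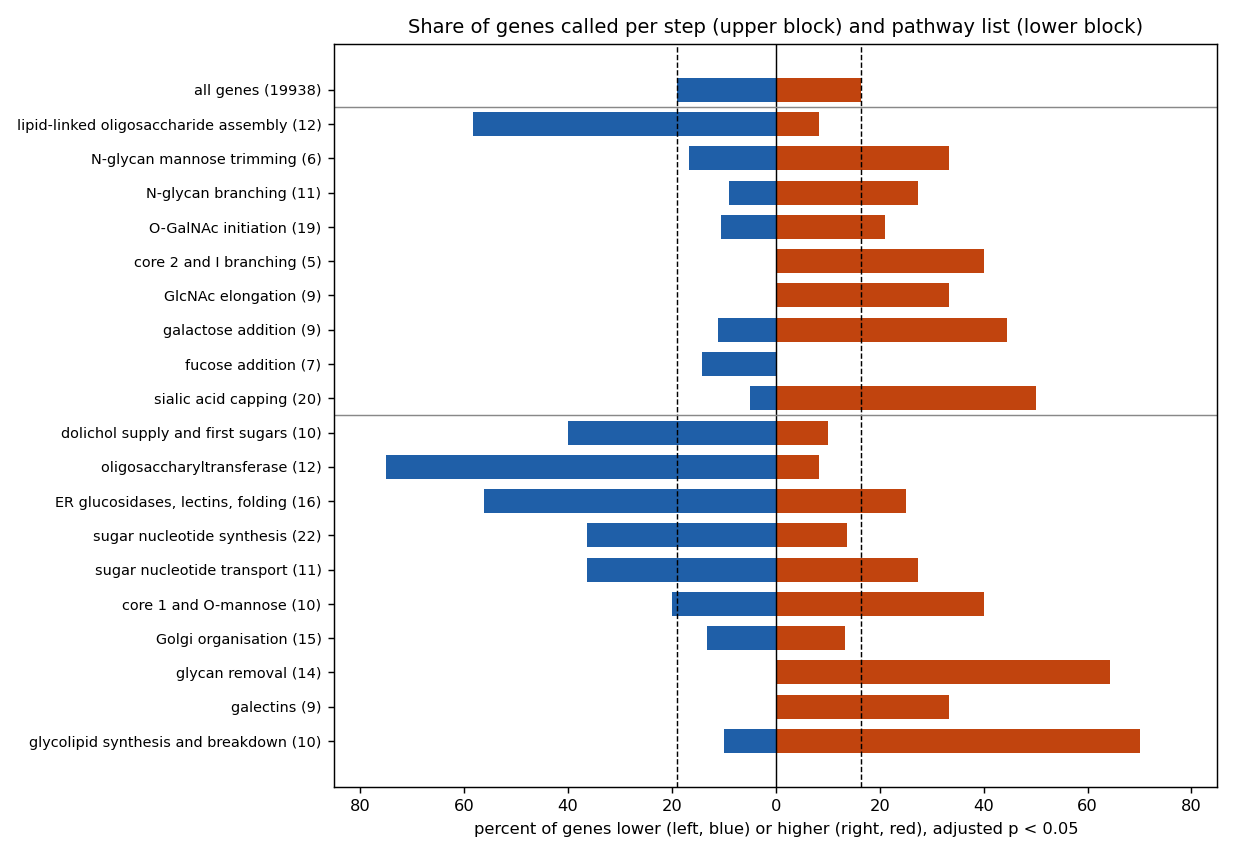
Percent of genes lower (left, blue) and higher (right, red) at an adjusted p under 0.05, for all genes, the 9 steps of the members and 10 further lists; the number of genes measured is in brackets and dashed lines mark the 16.4% higher and 19.1% lower of all genes. Falls reach 58.3% in lipid-linked oligosaccharide assembly and 75% in the oligosaccharyltransferase, and rises reach 50% in sialic acid capping and 64.3% in glycan removal.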

How the data were processed

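RNA of 3 undifferentiated and 3 differentiated MC3T3-E1 samples was hybridised to 1-colour Affymetrix mouse gene arrays, 1 per sample; the titles give group and replicate. The authors deposited log2 values made with RMA, per the submitters' processing notes; version, genome build and the centring step are not given in the sources used here. Medians per probe set are 0 (tolerance 1e-06), so levels are lost and dim genes could not be filtered; precision is limited by the number of arrays. No 2 arrays held identical values. Probe sets were named from the platform annotation, and gene IDs gave current symbols from RefSeq (GRCm38.p6): 21789 name 1 gene (21698 matched), 1621 several and 5446 none, and only the first kind was used. Probe sets of a gene were averaged (999 genes, 3 of them members).

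Differentiated was compared with undifferentiated with limma (3.58.1, R 4.3.3; lmFit, eBayes; two-sided tests without a replicate block) on all 19938 genes, with Benjamini-Hochberg adjustment over all of them; errors are moderated SEs. The fit was tested on simulated data. Members, steps, lists and alternatives were chosen with earlier results of these data known, and the promoter motifs after the sequences had been seen. Values in every array are given for the 8 largest rises and 8 largest falls among called members whose groups do not overlap, and for the leading member of each other step. Up to 3 genes each way are named per list; further genes were named after their values were seen. Listed genes with no usable probe set were not analysed here. Promoters are from RefSeq (GRCm38.p6); 25 members had no entry.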

Additional observations from a re-analysis of the deposited data

How the results depend on the processing

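Of the 43 member calls 37 held in all 14 alternative fits compared gene by gene (8 processing choices and 6 fits with 1 array left out); the exceptions were Alg1, Alg2, B3gnt4, B4galt3, Mgat1 and St6galnac4. No called member changed sign, and 9 further members passed in at least 1 fit, among them Galnt4, Alg5, B3gnt6 and B3gnt7. Members higher numbered 26 to 31 and lower 13 to 16 across processing choices, probe sets tested singly included, and 24 to 29 and 13 to 15 with each array left out. Over all genes the counts were 3051 to 3468 higher and 3468 to 4193 lower across choices, and 2675 to 3656 and 3297 to 3867 with an array left out. Genes of the other pathway lists numbered 35 higher and 39 lower, with 33 to 35 and 34 to 41 across choices and 30 to 34 and 31 to 38 with an array left out. The largest shift of the median of all genes under any of these choices was 0.00813 (log2). With the replicate number as a block, 28 members were higher and 13 lower. Deviations of same-numbered arrays from their group means correlated at -0.00133, 0.0692 and 0.162, so the numbers are not taken to pair the samples; 2 of 3 undifferentiated arrays correlated best with the differentiated array of their own number. The planned filter on dim genes needs a level and was not run.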

Other observations

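Glycolipid genes outside the members mostly rose. Of 10 measured genes of glycolipid synthesis and breakdown, 7 rose and 1 fell, with a median of 0.37. The share called was 80%, with 70% higher, against 35.5% and 16.4% of all genes. Hexa and Glb1 of this list also stand among the glycan removal genes. Ugcg, which makes the glucosylceramide that B4galt5 and B4galt6 extend, rose by 0.33 ± 0.08 (adjusted p = 0.00842), and B4galnt1, which acts on the GM3 that St3gal5 makes, by 0.41 ± 0.08 (adjusted p = 0.00243). The lysosomal cofactor genes Gm2a (1.67 ± 0.06) and Psap (0.92 ± 0.06) rose more, and B3galnt1, of globoside synthesis, fell (-0.45 ± 0.06, adjusted p = 5.30e-04).

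The list of galectins, proteins that bind galactose-ended chains, also holds Lgals3bp, which encodes a galectin-binding protein and no galectin. Of its 9 genes 3 were higher and 6 did not pass the threshold. The share called was 33.3%, all higher, against 35.5% of all genes called and 16.4% higher. Lgals3 was at -0.60, -0.60 and -0.53 in undifferentiated and at 0.67, 0.53 and 0.57 in differentiated arrays (1.16 ± 0.06, adjusted p = 7.45e-07), and Lgals3bp rose by 1.22 ± 0.06. Lgals2 (0.44 ± 0.12, adjusted p = 0.0188) did not pass without differentiated replicate 1 or 3 (adjusted p up to 0.0614) or under cyclic loess (0.271). Lgals1, Lgals8 and Lgals9 were at -0.09, -0.08 and -0.14 and did not pass.

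Of 10 core 1 and O-mannose genes 4 rose and 2 fell (60% called and 40% higher, against 35.5% and 16.4% of all genes). The largest change was in Pomgnt2 (0.62 ± 0.13, adjusted p = 0.00492), whose undifferentiated arrays spread from -0.60 to -0.09. The rise of Pomt2 (0.16 ± 0.05) and the fall of C1galt1 lost their calls with 1 array left out (adjusted p up to 0.116 and 0.0988). Golgi organisation genes had 2 of 15 higher (Cog4 and Atp6v0a2), 2 lower (Golga2 and Cog6) and all 15 between -0.29 and 0.29. Their share called was 26.7%, below the 35.5% of all genes. Atp6v0a2 lost its call with 1 array left out (adjusted p up to 0.154).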
